A study of Mus musculus and Ictidomys tridecemlineatus with 36 samples.

Results

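Chromatin around 10 genes of thyroid hormone and retinoid signalling was described in the P2 mouse retina. The set comprised 6 nuclear receptor genes, Thra, Rara, Rarb, Rarg, Rxra and Rxrb, and 4 enzyme genes, Dio2, Dio3, Aldh1a1 and Cyp26a1. They were chosen by name and function, out of 21938 protein-coding genes, with Thrb and Rxrg left out. Earlier results of these data were known at that choice. All peaks within 1 kb of any transcription start site (TSS) of a gene were collected, as were all peaks in its window, defined as the gene body plus 20 kb on each side. Of the 246656 peaks in 5 lists, 269 fell in these windows.

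CUT&RUN, which releases and sequences the DNA around a bound antibody, was performed on nuclei of snap-frozen retina from 13LGS, the 13-lined ground squirrel, and mouse. Only the 20 mouse libraries are described here, all from retina at postnatal day 2, with no genotype, strain or treatment named in the labels. They comprise 2 libraries each for H3K4me3, H3K27ac, H3K4me1 and the IgG control, 4 for Neurod1, and 8 for Otx2, the last split evenly between an R&D Systems and an Atlas antibody. They derive from 2 biological replicates, each a pool of retinas from 3 animals. The authors called peaks jointly over all libraries of a target, so each peak carries a single pooled fold enrichment over IgG. No replicate spread, test or read depth can be derived from these lists, and the genes are therefore described by values and counts beside the same counts over all protein-coding genes. Of 8 genes that mark retinal progenitors and photoreceptor precursors, 8 had both H3K4me3 and H3K27ac within 1 kb of a TSS. Of 11 genes of pigment epithelium, lens, endothelium, microglia and muscle, 1 had H3K4me3 (Pmel, 11.3-fold) and 0 had H3K27ac. The shares over all protein-coding genes were 56.0% and 22.6%. H3K4me1 lay at a TSS of all 8 retinal genes and of 6 of the 11, compared with 63.6%. The wider windows of some of the 11 held H3K27ac, up to 7 peaks at Pecam1, and those of others held 0.

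Thyroid hormone and retinoic acid act through nuclear receptors, which bind DNA as heterodimers with a retinoid X receptor and repress or activate their targets according to whether ligand is present. How much ligand a cell sees is set locally by enzymes. Dio2 activates thyroid hormone and Dio3 inactivates it, while Aldh1a1 makes retinoic acid and Cyp26a1 degrades it. In the developing retina, thyroid hormone is known for its role in the choice of cone opsin, and retinoic acid for eye patterning and photoreceptor development. H3K4me3 marks promoters, H3K27ac marks active promoters and enhancers, and H3K4me1 marks enhancers and the flanks of promoters. Otx2 and Neurod1 are transcription factors of photoreceptor and bipolar cell precursors.

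Retinoic acid receptors are best known to bind direct repeats of a six-letter half-site separated by a five-base spacer, termed DR5. The sequence within 1 kb of each TSS was searched on both strands, and a half-site was AGGTCA itself, its close variant AGTTCA, or the forms of these that open with another purine, that is GGGTCA for the former and GGTTCA for the latter. A DR5 was present near a TSS of 5 of the 10 genes, namely Rara, Rarb, Rarg, Rxrb and Cyp26a1, against 1.50% of all protein-coding genes. These sequences are shown because they place possible receptor contacts within the genes that encode or oppose the retinoid receptors. Each is given 5′ to 3′ on the strand that carries the repeat, with the half-sites in capitals and RefSeq GRCm38.p6 as the source.
Rarb, chr14:16575513-16575529, minus strand: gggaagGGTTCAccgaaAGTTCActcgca
Cyp26a1, chr19:37697776-37697792, minus strand: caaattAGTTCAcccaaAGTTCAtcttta
Rara, chr11:98960008-98960024, plus strand: caggcgAGTTCAgcaagAGTTCAgccgaa
Rarg, chr15:102250817-102250833, minus strand: ggtcagGGTTCAaagtgAGGTCAcggtat
Rxrb, chr17:34036840-34036856, minus strand: acctgcAGGTCActcaaAGGTCAcagctc

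The coordinates are those of the 17-base repeat, and the printed runs extend 6 bases further on each side. The Rarb repeat lies 14 to 30 bp inside transcript Rarb-201, in its first exon, and is covered by H3K4me3, H3K4me1 and Otx2 peaks. The Cyp26a1 repeat ends 6 bp before the start of Cyp26a1-201 and is covered by H3K4me3 and H3K4me1. The Rara repeat lies 404 to 388 bp before the start of Rara-202, also under H3K4me3 and H3K4me1, and not near the more acetylated upstream start described later. The Rarg repeat lies 487 to 471 bp before Rarg-206, under H3K4me1 only, and overlaps a DR1, a repeat with a one-base spacer. The Rxrb repeat lies 377 to 393 bp inside the retained-intron transcript Rxrb-208, under no peak.

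Because genes with more TSSs offer more sequence, the searched length had a median of 5586.5 bp for the 10 genes and 4002 bp for all genes. Over windows of equal length, 12 of the genes' 55 TSS zones of 2001 bp held a DR5, against 0.642% of 93513 such zones, and neighbouring zones of a gene can share a site. Over the 300-base RefSeq promoters, available for 9 of the genes (Thra had no entry), the promoters of Rarb and Cyp26a1 held a DR5, 2 of 16 in all. Among all 32851 promoters in the table, 32, or 0.0974%, held one. Within 1 kb of a TSS the other spacings were found at fewer of these genes. DR1 occurred near a TSS of 2 genes (Rarg and Rxra) and in 3.11% of all genes, DR4 in 1 (Rxrb) and in 1.44%, and DR2 in 0 and in 3.60%. A match describes the letters only, and no receptor was mapped in these data.

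The 120 bases before the Cyp26a1-201 start, chr19:37697678-37697797 on the plus strand, show how close the repeat sits to this gene's start. On this strand the half-sites appear in capitals as their reverse complements.
Cyp26a1 upstream sequence: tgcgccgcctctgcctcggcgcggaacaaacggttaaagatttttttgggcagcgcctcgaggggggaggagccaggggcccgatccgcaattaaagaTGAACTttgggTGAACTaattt

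A further DR5, chr19:37695909-37695925 on the plus strand, lies 1889 to 1873 bp before the same start and reads ctgcagGGGTCAcaggcGGGTCAggctaa. Both Cyp26a1 repeats lie inside a single H3K4me3 peak. Across the windows there were 11 DR5 sites, of which 6 lay under a peak and 4 under H3K4me3. The same windows held 15 DR1, 13 DR2 and 2 DR4 sites, of which 2 DR1 sites lay under H3K4me3, and no such count was made for all genes.

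At the TSSs, H3K4me3 was found at 9 of the 10 genes, compared with 56.0% of protein-coding genes, and the exception was Dio2. H3K4me1 was found at all 10, compared with 63.6%. H3K27ac was found at 4 genes, Thra, Rara, Rxra and Aldh1a1, compared with 22.6%. Otx2 was found at 7 genes, which left out Dio2, Dio3 and Aldh1a1, compared with 51.0%. Neurod1 was found at Rara alone, compared with 5.76%. Among the 9 genes with H3K4me3, the peak overlapped H3K27ac in 4, compared with 30.1% of all genes with H3K4me3. The zones around the TSSs had a median length of 5586.5 bp for the 10 genes and 4002 bp for all genes. The 10 genes thus had more sequence in which a peak could be counted, and these shares were not adjusted for it. The Neurod1 and Otx2 counts at TSSs fell to 0 and 4 genes for peaks with a −log10 q-value of at least 5.

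**Figure D1:**
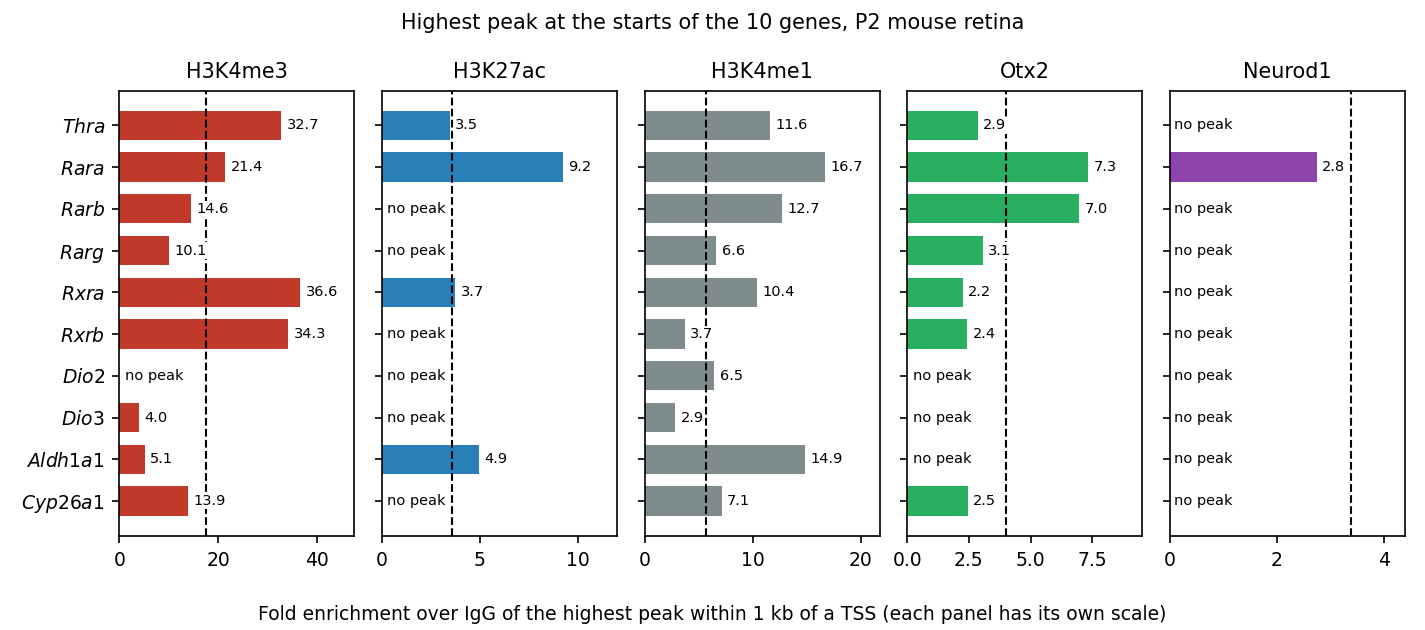
Fold enrichment over IgG of the highest peak within 1 kb of a TSS, one bar per gene and one panel per target, each panel with its own linear scale. Dashed lines mark the median over all protein-coding genes with such a peak, and no error bars can be drawn for pooled lists. Rxra, Rxrb and Thra lead for H3K4me3 (36.6, 34.3 and 32.7), and Rara leads for H3K27ac (9.23), H3K4me1 (16.7) and Otx2 (7.32).

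The receptor genes divided into a strongly and a less strongly H3K4me3-marked group. Rxra, the retinoid X receptor alpha gene, had the highest fold enrichment, 36.6, in a peak of 2928 bp whose summit lay 531 bp past the start of Rxra-206. Rxrb, which encodes retinoid X receptor beta, had 34.3 in a peak of 2391 bp that also holds the TSS of its neighbour Slc39a7, so the signal cannot be assigned to either gene. Thra, which encodes thyroid hormone receptor alpha, had 32.7 in a peak of 3678 bp with its summit 37 bp from the Thra-208 start. Only these 3 of the 10 genes lay above 30-fold, and 15.3% of all genes with H3K4me3 reached the value of Thra.

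Among the retinoic acid receptor genes, Rara (receptor alpha) had 3 separate H3K4me3 peaks at its TSSs. Fold enrichments were 21.4 at Rara-203, the most upstream start, 8.90 at Rara-201, and 20.3 at Rara-202, where the peak spanned 4510 bp and contained the DR5 shown above. Rarb (receptor beta) had 14.6 in a peak of 3527 bp at its internal starts, which also holds the start of the noncoding gene Gm48162. The 2 distal Rarb starts, 244 kb upstream, had no H3K4me3 but had H3K4me1 at 12.7-fold. Rarg (receptor gamma) had 10.1 in a peak of 2279 bp at Rarg-202 and 3.18 at Rarg-201. Over the 55 annotated TSSs of the 10 genes, 36 had H3K4me3 within 1 kb. Neighbouring starts of a gene can share a peak, and the same count was not made over all annotated TSSs.

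Among the enzyme genes, Cyp26a1, the retinoic acid hydroxylase, had 13.9, between Rarb and Rarg. Aldh1a1, a retinaldehyde dehydrogenase, had 5.10 and Dio3, the deiodinase that inactivates thyroid hormone, had 3.98. For Dio3 the 3.98-fold peak was 245 bp wide and also holds the start of the opposite-strand gene Dio3os, and a second peak of 3.10 lay at Dio3-202. At Aldh1a1 the mark lay at the start of the protein-coding transcript Aldh1a1-201, 109 kb inside the gene, and not at the 4 upstream starts. The upstream transcript Aldh1a1-204 is a processed transcript. Dio2, the deiodinase that activates thyroid hormone, had H3K4me1 at 6.47 as the only peak of any target within 1 kb of its TSS. The median of the 9 genes with H3K4me3 was 14.6-fold, compared with 17.5-fold over all genes with the mark.

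Cyp26a1 differed from the other enzymes in the width of its mark. Its H3K4me3 peak spanned 5049 bp, more than the whole 3739 bp gene, and 1.25% of genes with H3K4me3 had a peak at least as wide, the median over genes being 1581 bp. The 4510 bp peak of Rara was reached by 1.79%, and the peaks of Thra and Rarb by 3.91% and 4.63%. No H3K27ac peak lay on the Cyp26a1 or Rarb promoter, in contrast to Thra and Rara.

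**Figure D2:**
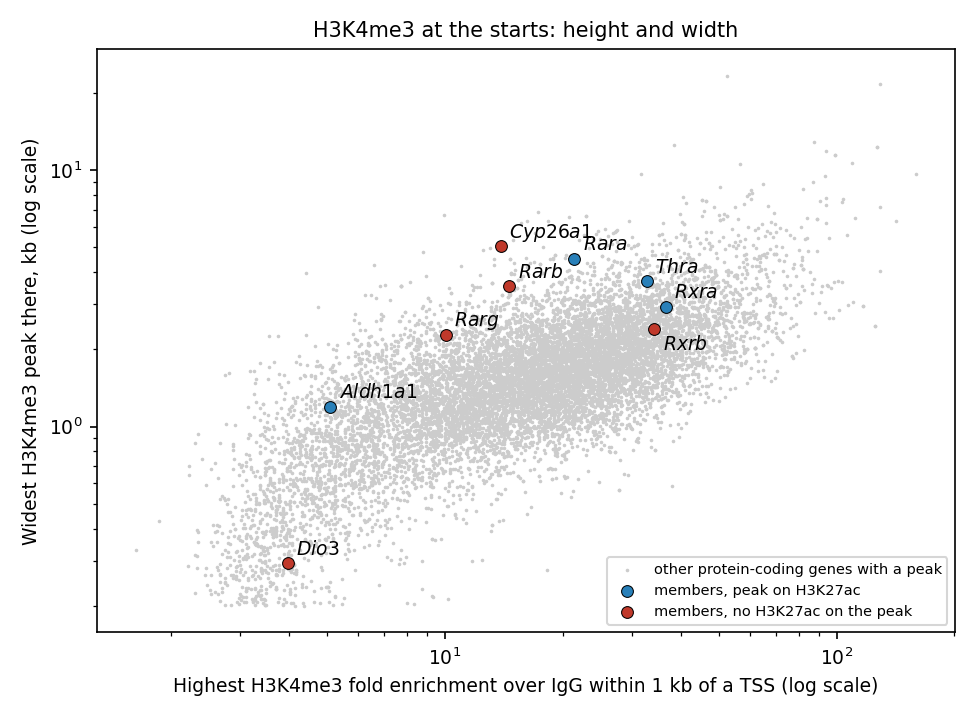
Highest H3K4me3 fold enrichment within 1 kb of a TSS (x axis, log scale) against the width in kb of the widest H3K4me3 peak there (y axis, log scale), for all protein-coding genes with a peak (grey) and the 9 genes of the set that have one (blue where an H3K4me3 peak overlaps H3K27ac, red where none does). For Rara and Dio3 the highest and widest peaks are different peaks. Cyp26a1 lies at the upper edge of the cloud, 5.05 kb wide at 13.9-fold, and Dio3 at its lower end.

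H3K27ac at the TSSs was highest at Rara. Its peak reached 9.23-fold over 5480 bp, spanning Rara-203 and part of an intron, and 1.70% of genes with H3K27ac at a TSS had a value at least as high. The next values were 4.94 at Aldh1a1, 3.74 at Rxra and 3.46 at Thra, and the median over all genes with the mark was 3.58. The Aldh1a1 value came from a peak of 2662 bp with its summit 3426 bp past the internal start Aldh1a1-201, and a second peak, of 3.67-fold over 760 bp, covered that start. The Thra value lay at the internal start Thra-203, which had no H3K4me3, and the acetylation overlapping the H3K4me3 of Thra reached 2.94. H3K4me1 at the TSSs was highest at Rara (16.7) and Aldh1a1 (14.9) and lowest at Rxrb (3.72) and Dio3 (2.85). The median over the 10 genes was 8.76-fold and over all genes with the mark 5.64-fold.

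Otx2 at the TSSs stood out at Rara and Rarb. The Rara peak reached 7.32-fold over 1506 bp, with its summit 1776 bp inside the gene, in an intron, and 9.53% of genes with Otx2 at a TSS had at least that value. The Rarb peak reached 6.96-fold over 1057 bp with its summit 55 bp inside Rarb-205, and covered the DR5 in the first exon. At the other 5 genes the values lay below the median of 3.99 over all genes with Otx2, namely 3.06 at Rarg, 2.86 at Thra, 2.46 at Cyp26a1, 2.43 at Rxrb and 2.25 at Rxra. The single Neurod1 peak at a TSS, 2.76-fold at Rara, overlapped only the edge of the 7.32-fold Otx2 peak. Its summit lay 810 bp past the Rara-203 start, and that of the Otx2 peak 1776 bp past it.

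The combination of targets at the TSSs separated the genes further. Targets were joined over all starts of a gene, so genes with more TSSs had more chances of each. Rara, with 7 TSSs, had all 5, a combination shared with 3.18% of protein-coding genes. Thra and Rxra had every target but Neurod1, as did 15.7% of genes. For Rxra this joined different starts, since its Otx2 peak of 2.25 lay at the processed transcript Rxra-205, which had no H3K4me3. With the starts of protein-coding transcripts alone, 5 of the genes had Otx2. Rarb, Rarg, Rxrb and Cyp26a1 had H3K4me3, H3K4me1 and Otx2 without H3K27ac, as did 24.1%. Dio3 had H3K4me3 and H3K4me1 (5.67%), Dio2 had H3K4me1 alone (8.75%), and Aldh1a1 had the 3 histone marks without either factor (0.966%, or 212 genes).

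In the wider windows the 10 genes held 26 H3K4me3, 71 H3K27ac, 118 H3K4me1, 49 Otx2 and 5 Neurod1 peaks. The median per gene was 3 for H3K27ac and 9 for H3K4me1, compared with 1 and 4 over all protein-coding genes. Windows ranged from 42.0 kb for Dio3 to 428 kb for Rarb. Per 100 kb the H3K27ac medians were 3.45 for the set and 1.06 for all genes. The H3K4me1 medians per 100 kb were 13.7 and 6.16. At least 1 Otx2 peak lay in 8 windows, compared with 69.9% of genes, and at least 1 Neurod1 peak in 4, compared with 19.4%. For peaks with a −log10 q-value of at least 5 the H3K27ac and Otx2 totals were 33 and 21.

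**Figure D3:**
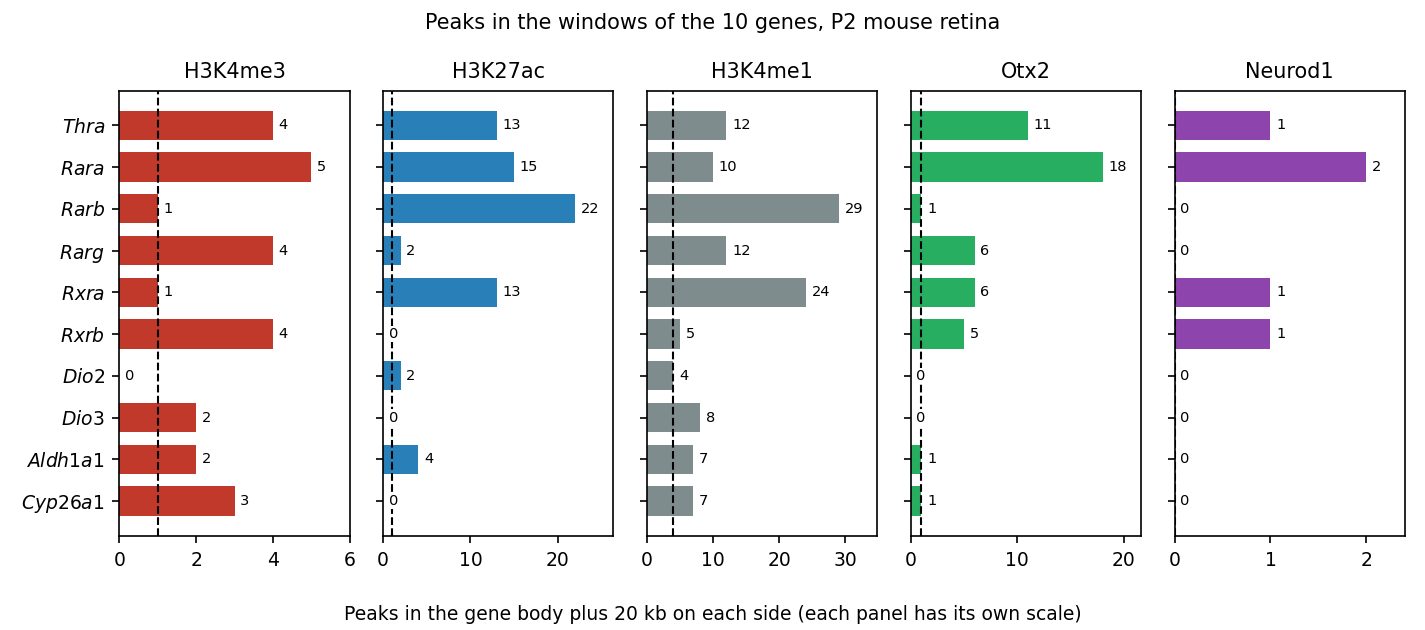
Number of peaks in the gene body plus 20 kb on each side, one bar per gene and one panel per target, each panel with its own linear scale. Dashed lines mark the median over all protein-coding genes, which is 0 for Neurod1. Rarb leads for H3K27ac (22) and H3K4me1 (29) in the longest window, and Rara for Otx2 (18).

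H3K27ac peaks were most numerous in the windows of 4 receptor genes. Rarb held 22 peaks, Rara 15, and Thra and Rxra 13 each, while Aldh1a1 held 4, Rarg and Dio2 2 each, and Rxrb, Dio3 and Cyp26a1 none. Counted per 100 kb the order changed, with Thra at 19.0, Rara at 17.2, Rxra at 10.3 and Rarb at 5.14. Counting only peaks nearest to a TSS of the gene itself, Rara and Rxra had 13 each, Rarb 12 and Thra 6, or 14.9, 10.3, 2.80 and 8.78 per 100 kb, so that Thra no longer led. By the same measure Dio2 had 3.71 and Aldh1a1 2.10 per 100 kb, so that Rarb lay below Dio2. Windows with at least 13 H3K27ac peaks made up 4.81% of all genes. By the overlap of peaks alone, 60 were classed as active enhancers, that is H3K27ac without H3K4me3. Another 64 were classed as poised enhancers, that is H3K4me1 with neither other mark. Both classes include peaks within 1 kb of a TSS. Examples are the H3K4me1 peaks at Dio2 and the distal Rarb starts (poised) and H3K27ac at Thra-203 (active). Per gene the medians were 2 active and 5 poised, compared with 0 and 2 over all protein-coding genes. Per 100 kb they were 2.65 and 5.71, compared with 0 and 2.80. Dio3, which had no H3K27ac, held 6 poised peaks, and Cyp26a1 held 5. Of the 7 H3K4me1 peaks in the Cyp26a1 window, 4 lay nearest to a TSS of Cyp26a1 itself. The others lay nearest to its neighbour Cyp26c1, among them the highest poised peak of the window, of 6.35-fold.

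Rara had the most Otx2 peaks. Its window held 18 Otx2 peaks, a number reached by 0.109% of protein-coding genes, and 14 of them had their summit inside the gene body. Of the 18, 12 overlapped H3K27ac, 6 overlapped H3K4me3, and 15 lay nearer to a Rara TSS than to any other protein-coding TSS. Apart from the 7.32-fold peak, fold enrichments ranged from 2.26 to 3.68. For peaks with a −log10 q-value of at least 5, Rara held 8 and Thra 7, or 9.18 and 10.2 per 100 kb, so that the order of the densities turned. The other Neurod1 peak of the window, 3.13-fold at chr11:98940918-98941253 in an intron, shared its position with an Otx2 peak of 3.65 and an H3K27ac peak of 3.44.

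Thra held 11 Otx2 peaks, a number reached by 0.793% of genes, but only 4 of these lay nearest to a Thra TSS. The highest, 9.85-fold at chr11:98729085-98729942 and 10978 bp before the nearest Thra TSS, lay at the promoter of its neighbour Med24 under H3K4me3. The peaks inside Thra were low, 2.86 at the promoter, then 2.25, 2.79 and 2.80 in introns, and the 2.25-fold peak overlapped the only Neurod1 peak, of 2.57. The highest H3K27ac peak of the window, 7.07-fold over 2374 bp, lay downstream of the gene, nearest to Nr1d1, the circadian repressor gene that borders Thra. Inside Thra, H3K27ac reached 4.43 over 4069 bp in an intron, within an H3K4me1 peak of 13903 bp.

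Rxra has no other protein-coding TSS in its window. It held 13 H3K27ac peaks, of which the highest, 7.55-fold over 2309 bp at chr2:27669927-27672235, lay 5809 bp before the first TSS and the next, 6.89-fold at chr2:27749333-27751254, in an intron. Both overlapped H3K4me1 and low Otx2 peaks, of 1.95 and 1.89. The highest of the gene's 6 Otx2 peaks was 3.41, in an intron near the edge of the H3K4me3 peak. Rxra also held the highest H3K4me1 peak classed as poised in the set, 15.2-fold over 7025 bp at chr2:27698427-27705451.

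**Figure D4:**
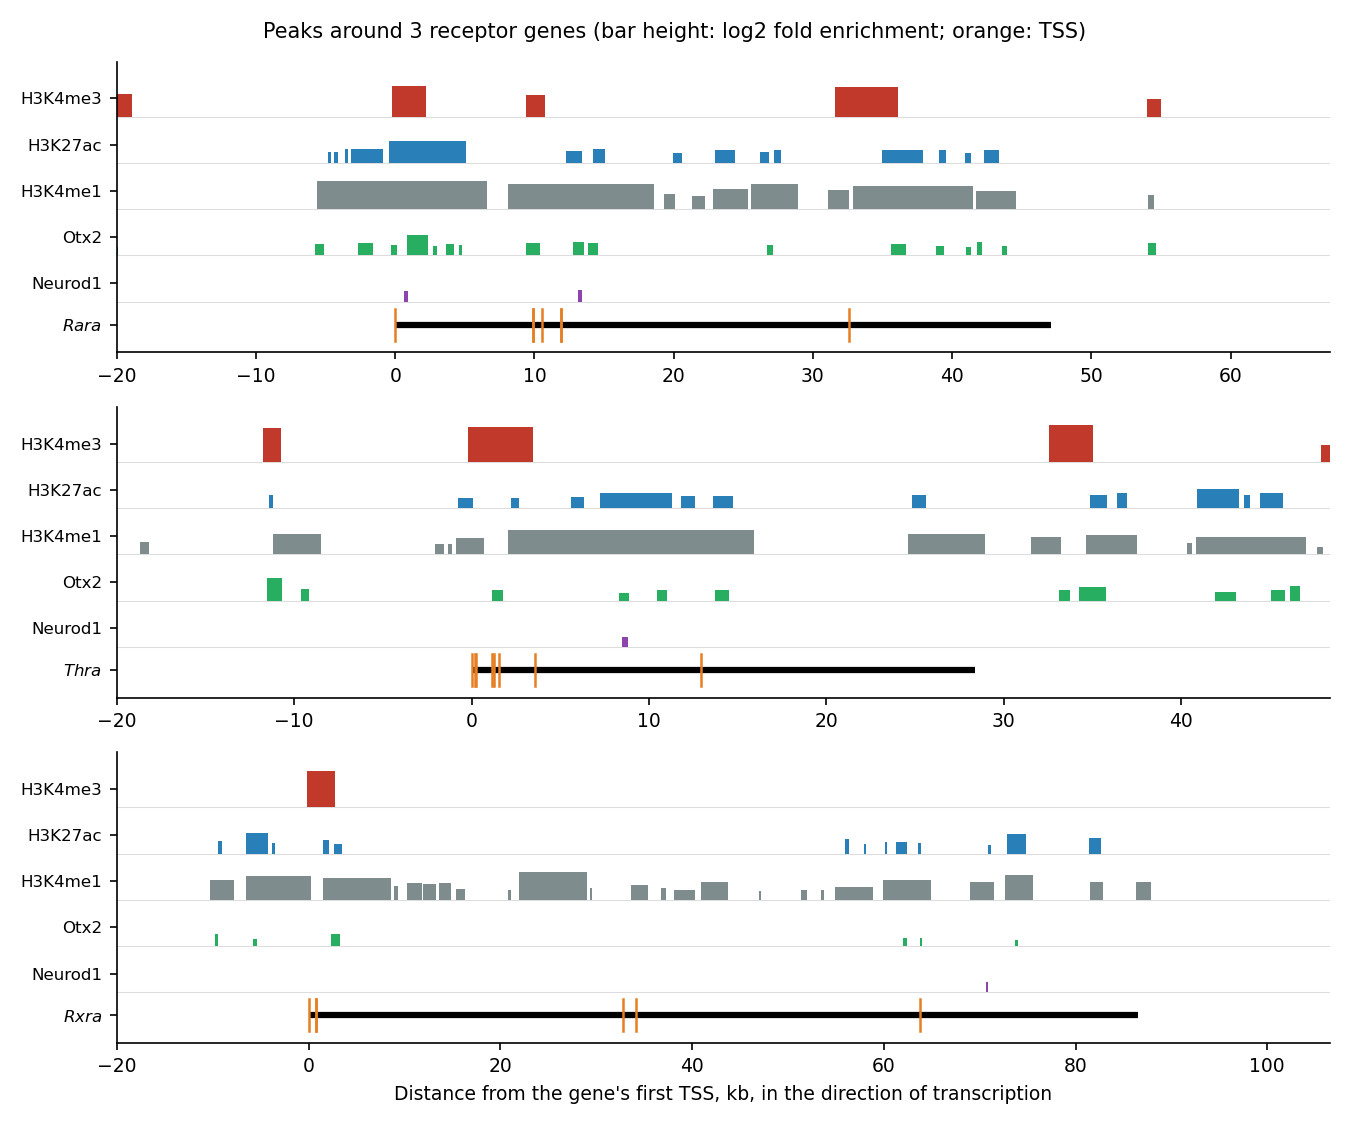
Peaks of the 5 targets around Rara, Thra and Rxra, in kb from the first TSS in the direction of transcription. The height of a block is the log2 fold enrichment on a common scale, the black line is the gene, orange ticks are TSSs, and very narrow peaks are drawn at a minimum width. Otx2 peaks are spread along the whole of Rara, whereas at Thra most lie beside the flanking genes.

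At Rarb, the histone marks around the distal starts contrasted with the promoter. The highest H3K4me1 peak of any window, 34.1-fold over 4109 bp at chr14:16820163-16824271, had its summit 3022 bp before the distal start of Rarb. Only 0.0611% of the 135798 H3K4me1 peaks were at least as high. It coincided with the highest H3K27ac peak of the window, 6.79-fold over 1388 bp, and held neither H3K4me3 nor Otx2. The only Otx2 peak of this 428 kb window was the one at the internal promoter. Of the 22 H3K27ac peaks, 10 overlapped no H3K4me1, with fold enrichments between 2.45 and 5.14, and these were all of the active peaks without H3K4me1 in the 10 windows. Such peaks made up 16.7% of the active peaks in the windows and 42.7% in the whole list. Of the 10, 3 lay nearest to a Rarb TSS, the others being nearest to Top2b, the downstream neighbour.

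At Aldh1a1, the second highest H3K4me1 peak of the set lay 16.0 kb past the upstream starts. It reached 28.0-fold over 4587 bp at chr19:20505723-20510309 in an intron, a value reached by 0.262% of H3K4me1 peaks. It overlapped an H3K27ac peak of 4.36 and the only Otx2 peak of the window, of 2.94. No H3K4me3 lay at the upstream starts. At Dio2, a comparable element lay 15.3 kb upstream of the TSS, with H3K4me1 at 14.1-fold over 1842 bp and H3K27ac peaks of 4.53 and 3.46 within it, and without Otx2 or Neurod1. These 2 acetylated peaks were the only H3K27ac in the Dio2 window.

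**Figure D5:**
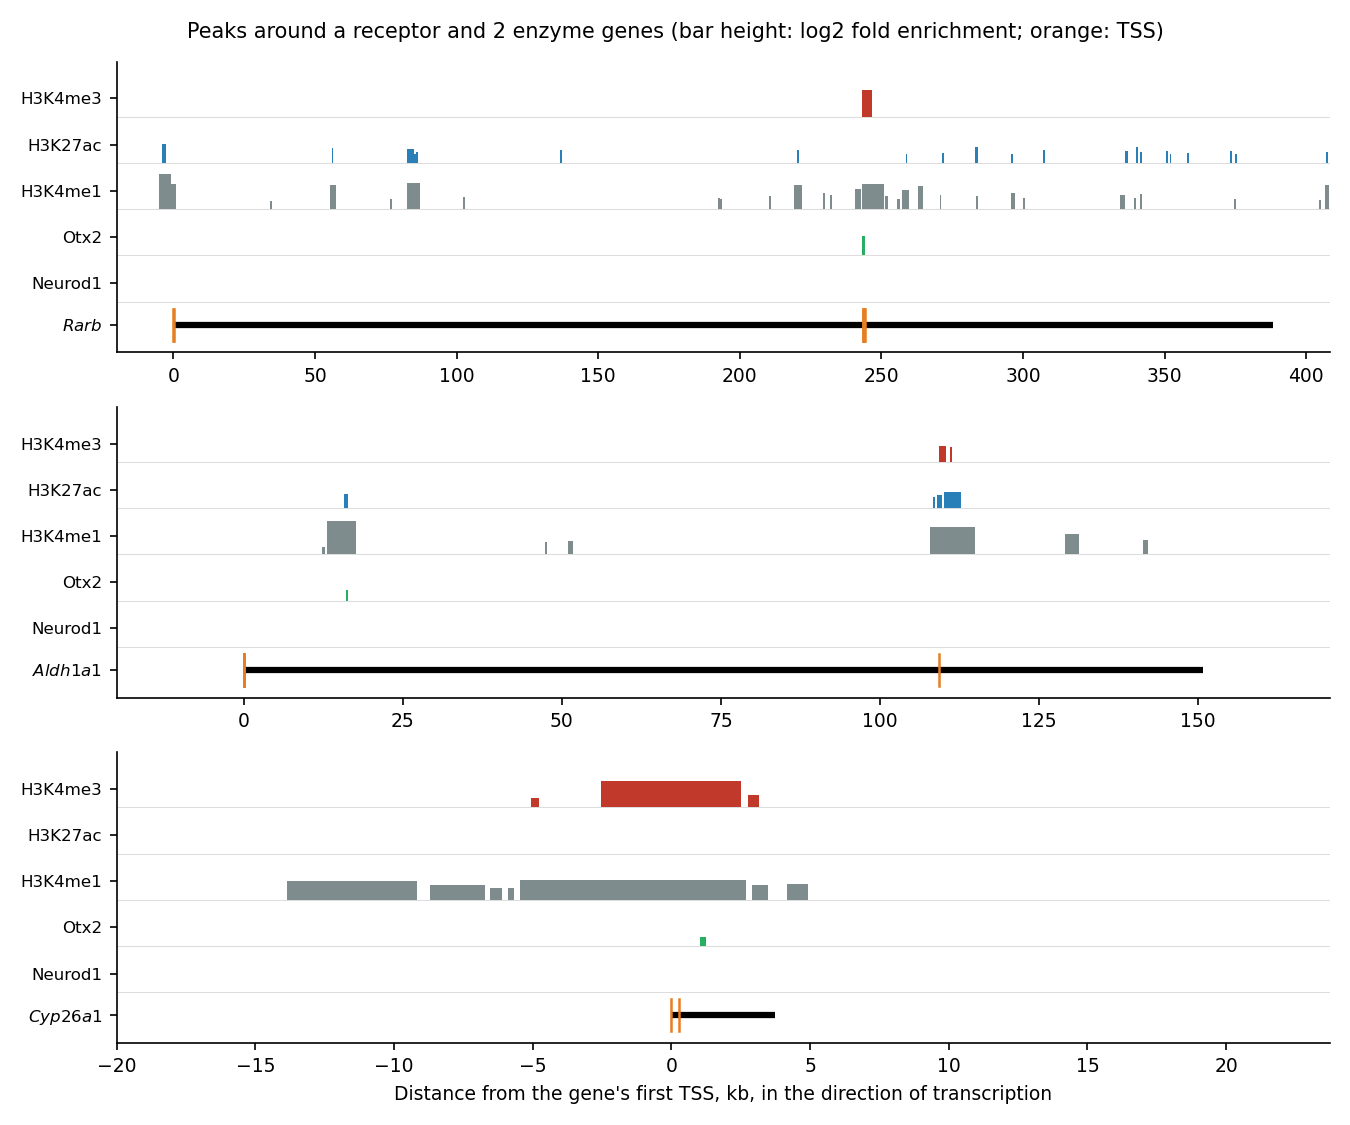
Peaks of the 5 targets around Rarb, Aldh1a1 and Cyp26a1, in kb from the first TSS in the direction of transcription, drawn as in the map of Rara, Thra and Rxra, with a separate distance scale for each gene. At Rarb and Aldh1a1 the H3K4me3 lies at internal starts, 244 and 109 kb from the first TSS, and at Cyp26a1 it covers the whole start with no H3K27ac in the window.

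Cyp26a1, Dio3, Rarg and Rxrb had little or no acetylation. Cyp26a1 had 7 H3K4me1 peaks, 4 of them nearest to its own TSSs, the highest 7.12-fold over 8124 bp across its promoter. It had a single weak Otx2 peak of 2.46 in a coding exon. Dio3 had 8 H3K4me1 peaks of 2.41 to 4.36 and no peak of either factor. Rarg had 12 H3K4me1 peaks, of which 8 lay nearest to its own TSSs, the highest of these 6.63-fold. The highest of all, 7.05-fold, lay nearest to Itgb7. The 2 H3K27ac peaks of the Rarg window, of 3.08 and 3.20, lay nearest to Itgb7 and Gm9918. In the Rxrb window, which holds the TSSs of Col11a2, H2-Ke6, Ring1 and Slc39a7, 1 of 5 Otx2 peaks lay nearest to an Rxrb TSS, and the Neurod1 peak of 3.02 lay inside H2-Ke6.

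Across all windows, 13 of the 49 Otx2 peaks lay within 1 kb of a TSS of the gene and 36 did not, and 32 lay nearest to a TSS of the gene itself. Thra and Rara together held 29 of the 49. All 49 overlapped a histone peak, with 47 on H3K4me1, 28 on H3K27ac and 20 on H3K4me3. The share on H3K27ac was 57.1%, compared with 36.2% of all Otx2 peaks, and the share on H3K4me3 was 40.8%, compared with 43.3%. Seen from the enhancers, 17 of 60 active peaks held Otx2 (28.3%, compared with 11.0% in the whole list). Of 64 poised peaks, 1 did (1.56%, compared with 6.98%). The pooled shares differed by gene. The 17 comprised 6 at Rara, 5 at Rxra, 4 at Thra and 1 each at Rarg and Aldh1a1. Rarb had 0 among its 22 active peaks and Dio2 had 0 among 2. Of the 28 Otx2 peaks on H3K27ac, 12 lay in the Rara window, 7 at Thra, 6 at Rxra, 2 at Rarg and 1 at Aldh1a1. The median fold enrichment of the 49 was 2.93, below the 3.54 of all Otx2 peaks.

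The bases under the factor summits were searched for the Otx2 core TAATCC and the Neurod1 E-box CAGATG on both strands, over the 301 bp around each summit. TAATCC was found at 6 of the 49 Otx2 peaks, compared with 18.3% of the 29115 Otx2 peaks. CAGATG was found at 3 of the 5 Neurod1 peaks, compared with 52.3% of the 4744 Neurod1 peaks. The sequences below show the core at the highest Otx2 peak of any window, which has 2 copies. Next comes the Otx2 peak with the core closest to its summit, 2 bp away. It lies in the Rarg untranslated region, 8050 bp from the nearest Rarg TSS and nearest to a TSS of Itgb7. The last is the Neurod1 peak of the Rara promoter, with its core 62 bp from the summit. Capitals mark the core, on the strand that carries it.
Thra window, Med24 promoter, chr11:98729546-98729575, minus strand: aaccaattagatTAATCCttctgcctgttt
Thra window, Med24 promoter, chr11:98729584-98729613, plus strand: ttttatctgagaTAATCCgaagagctgagg
Rarg, chr15:102235522-102235551, minus strand: ggtgccccatccTAATCCtcctgccgggtg
Rara, chr11:98928675-98928704, plus strand: tcaggctcagtcCAGATGgctggggaaggg

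The Otx2 peaks of Rara and Rarb at their TSSs, the highest of the set's own promoters, held no TAATCC in this span. TAATCC occurred within 1 kb of a TSS of 7 of the genes and of 70.7% of all genes, and CAGATG at 8 and 87.8%.

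For the rest of the pathway, 25 other genes were grouped by role. H3K4me3 lay at a TSS of 14, H3K27ac at 8, H3K4me1 at 22, Otx2 at 15 and Neurod1 at 3. Set against 25 genes, the H3K4me3 and Otx2 counts lay near the shares of 56.0% and 51.0% over all protein-coding genes, while those over all genes for H3K27ac, H3K4me1 and Neurod1 were 22.6%, 63.6% and 5.76%. All 6 coregulator genes had H3K4me3, the lowest being 21.7-fold at Med1, and all 6 had Otx2. Of 8 further enzyme genes, 3 had H3K4me3, with 41.1 at Rdh10, which makes retinaldehyde, in a peak shared with the neighbouring gene Rpl7, 8.90 at Dhrs3, which reduces it, and 6.03 at Aldh1a3. Of 9 transport and binding genes, 3 had it, among them Crym (18.1) and Fabp5 (16.0), which both also had Neurod1. The remaining receptors, Thrb and Rxrg, had 14.3 and 3.98, with Otx2 at 7.29 and 4.41, values near those of Rarb and, for H3K4me3, Dio3.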

How the data were processed

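Peak lists of the P2 mouse retina were used for H3K4me3, H3K27ac, H3K4me1, Otx2 and Neurod1. The submitters' processing notes name Trim Galore 0.6.4, cutadapt 3.5, Bowtie2, SAMtools 1.12, UMI-tools, deepTools 3.5.1 and MACS2, with GRCm38. Technical replicates were merged by the authors, who set a q-value of 0.05 for peaks over IgG and pooled the libraries of a target, and mitochondrial and blacklisted regions were left out. The deposited fold enrichment is a ratio of pooled signal to IgG, and the deposited significance is a −log10 q-value. Neither was rescaled. Read depth is unknown and each list pools its libraries, so no interval, replicate spread or test was computed, and no library could be left out. Lists of the 13LGS were not used here.

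Peaks were intersected with GENCODE M21 gene models (1 bp overlap) in Python 3.11.15 with numpy 2.4.6 and pandas 2.3.3, and plots were drawn with matplotlib 3.10.9. The overlap code was tested on simulated data against bedtools 2.31.1, with 0 of 8000 counts differing, and the motif search found 800 of 800 planted repeats. Where a gene and target had several peaks within 1 kb of a TSS, all were counted and the highest named. Also named were every Otx2 and Neurod1 peak of a window, summarised where many, and its highest H3K27ac and H3K4me1 peaks, with further peaks chosen after their values were seen. Active enhancers are H3K27ac peaks overlapping no H3K4me3 peak, and poised enhancers are H3K4me1 peaks overlapping neither, in both cases at any distance from a TSS. Sequences and motifs were read from RefSeq GRCm38.p6. The 10 genes and the lists of pathway and marker genes were chosen with earlier results of these data known. Some genes of the pathway list are not reported here by name.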

Additional observations from a re-analysis of the deposited data

How the results depend on the processing

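Each of 14 counts was recomputed under the alternatives set out for it, 86 in all, and 72 stayed within 1.5 times the reported count. With a −log10 q-value of at least 5, the genes with Otx2 at a TSS went from 7 to 4 and those with Neurod1 from 1 to 0. In the windows, under the same limit, H3K27ac went from 71 to 33, active enhancers from 60 to 27, Otx2 from 49 to 21, Otx2 outside the TSS zones from 36 to 14 and Neurod1 from 5 to 2. With a fold enrichment of at least 2.5, 4 genes had Otx2 at a TSS. With the gene body alone, H3K4me3 peaks numbered 14, Otx2 peaks 31 and Otx2 peaks outside the TSS zones 18. Counting only peaks nearest to a TSS of the gene, these were 16, 32 and 20. Each of these limits uses fewer of the peaks, and the gene body alone also leaves out flanking peaks nearest to the gene itself. No paired analysis was possible because each list pools the libraries of both biological replicates, and leaving out a replicate was not possible for the same reason. Depth is unknown, so the absence of a peak says only that none passed the authors' threshold.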
